A study of Mus musculus with 4 samples.

Results

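The classical protein tyrosine phosphatase genes were taken as all rows of the per-library expression file whose symbol starts with Ptpn and a digit or with Ptpr and a letter. This gave 39 of 23285 genes, of which 22 were receptor-type (Ptpr) and 17 non-receptor-type (Ptpn). One of the 22, Ptprcap, encodes a small membrane protein bound to CD45 and no phosphatase. RNA was sequenced from DN3 thymocytes, a CD25-positive double-negative stage, in 4 libraries from C57BL/6 material. They derived from irradiated recipients that had received fetal liver cells 16 weeks earlier, from wild-type (WT) donors or from donors of the genotype Gata3(g/g), which the labels call a hypomorph. Each genotype had 2 libraries, and the replicate number also marks the sequencing run, so that both replicates 1 came from run 1 and both replicates 2 from run 2. Whether each library came from 1 animal or from pooled animals, and whether the sort selected donor cells, is not given in the sources used here, so p-values concern the spread between these libraries only.

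Protein tyrosine phosphatases remove phosphate from tyrosine residues and thereby oppose, or in some cases switch on, the tyrosine kinases of a cell. In thymocytes the transmembrane phosphatase CD45 (Ptprc) removes the inhibitory phosphate of the kinase LCK, whereas PEP (Ptpn22), SHP-1 (Ptpn6) and TC-PTP (Ptpn2) dephosphorylate kinases of antigen receptor and cytokine receptor signalling. Receptor-type members span the membrane and mostly carry a pair of phosphatase domains inside the cell. Non-receptor-type members are intracellular and are directed to their substrates by SH2, FERM, proline-rich (PEST) or kinase-interaction (KIM) regions.

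Totals per library ran from 14331705 to 26901913 gene-assigned fragments. A count of 3 fragments, the floor for counting error alone, equals 0.112 to 0.209 CPM, the fragment count relative to the library's total. Gata3, the gene named in the genotype, was higher in the libraries labelled Gata3(g/g), with 62.4 and 58.5 FPKM in WT against 120 and 96.1 FPKM in Gata3(g/g), so directions given for this genotype rest on the labels. FPKM is the number of fragments scaled by transcript length and by library size, and pairs of values are given with replicate 1 first. All 12 DN3 marker genes checked, among them Il2ra, Ptcra, Dntt and Rag1, were at or above 1 FPKM in every library. Run 2 differed from run 1 in transcripts of other blood cells: 8 erythroid markers summed to 1.38 (WT) and 2.48 FPKM (Gata3(g/g)) in run 1 and to 460 and 588 FPKM in run 2.

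Of the 4 members whose genotype difference is described most closely, 3 passed the test with the replicate block at the filter used throughout, and Ptpn13 passed where that filter was removed. The 250 bases before their annotated starts are shown to give the sequence context of the genes that moved. The sequences are from RefSeq (GRCm38.p6), 5′ to 3′ on the strand of the gene, with the letters GATA, or TATC where GATA lies on the other strand, in capitals. Ptpn22 has an upstream and a downstream start, with windows at chr3:103859545-103859794 and chr3:103860027-103860276 (plus strand), and the downstream start lies 15 bases from the start in the authors' deposited table. The windows of Ptpn6 (chr6:124738710-124738959, minus strand), Ptprf (chr4:118291398-118291647, minus strand) and Ptpn13 (chr5:103424942-103425191, plus strand) adjoin the gene start that follows from that table's coordinates.
Ptpn22, upstream start: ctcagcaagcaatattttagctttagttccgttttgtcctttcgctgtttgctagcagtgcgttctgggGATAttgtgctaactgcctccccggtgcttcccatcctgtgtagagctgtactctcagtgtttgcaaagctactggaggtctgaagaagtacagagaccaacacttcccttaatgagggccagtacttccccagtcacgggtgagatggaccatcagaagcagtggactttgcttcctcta
Ptpn22, downstream start: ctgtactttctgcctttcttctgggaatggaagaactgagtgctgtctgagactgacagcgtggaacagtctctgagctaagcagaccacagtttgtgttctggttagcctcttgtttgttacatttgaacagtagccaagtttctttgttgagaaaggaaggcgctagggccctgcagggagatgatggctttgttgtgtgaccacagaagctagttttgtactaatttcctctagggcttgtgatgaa
Ptpn6: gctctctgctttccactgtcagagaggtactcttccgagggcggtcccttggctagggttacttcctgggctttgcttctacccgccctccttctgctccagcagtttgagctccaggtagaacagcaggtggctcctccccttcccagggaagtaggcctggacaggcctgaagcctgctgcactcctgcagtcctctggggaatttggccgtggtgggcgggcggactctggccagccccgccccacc
Ptprf: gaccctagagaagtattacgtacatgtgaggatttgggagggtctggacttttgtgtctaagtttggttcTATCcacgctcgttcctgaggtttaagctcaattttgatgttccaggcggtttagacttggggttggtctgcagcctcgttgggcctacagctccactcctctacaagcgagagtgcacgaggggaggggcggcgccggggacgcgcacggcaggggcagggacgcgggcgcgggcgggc
Ptpn13: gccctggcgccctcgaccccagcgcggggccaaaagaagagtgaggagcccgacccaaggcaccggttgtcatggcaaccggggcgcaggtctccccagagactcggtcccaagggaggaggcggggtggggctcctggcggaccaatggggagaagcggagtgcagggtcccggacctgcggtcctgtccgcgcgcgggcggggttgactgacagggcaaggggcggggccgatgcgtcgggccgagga
The letters GATA were present once before the upstream Ptpn22 start and once, as TATC, before Ptprf. They were not in the windows of Ptpn6, Ptpn13 and the downstream Ptpn22 start.

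Of the 39 members, 32 had a promoter entry in RefSeq, with 46 windows of 250 bases. GATA on either strand was in 19 of the 46 (41.3%), against 53.6% of 32841 windows of all genes. The longer form AGATAA, searched also as its reverse complement TTATCT and itself holding the shorter letters, was in 3 of 46 (6.52%) against 9.99%. TGTGGT, core letters bound by RUNX factors, searched also as its reverse complement ACCACA, was in 6 (13%) against 14%, and the E-box letters CANNTG were in 25 (54.3%) against 66.2%. Median GC content of the member windows was 63.4%, against 52.4% over all windows. These are counts of letters in short windows of unequal base composition and are given as a description.

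The classes differed in how many of their members were measured near 0. Of the receptor-type members, 8 of 22 (7 of 21 without Ptprcap) reached a mean of 1 FPKM over the 4 libraries, and 12 lay under 0.2 FPKM. Of the non-receptor-type members, 11 of 17 reached 1 FPKM and 2 lay under 0.2 FPKM. The median member stood at 0.0626 FPKM in the receptor-type class (0.0554 FPKM without Ptprcap) and at 5.39 FPKM in the non-receptor-type class. Summed over members, receptor-type phosphatases other than Ptprcap gave between 132 and 144 FPKM per library and non-receptor-type members between 276 and 335 FPKM. These levels are per transcript length, and no test was made between the classes, since members are not replicates.

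**Figure D1:**
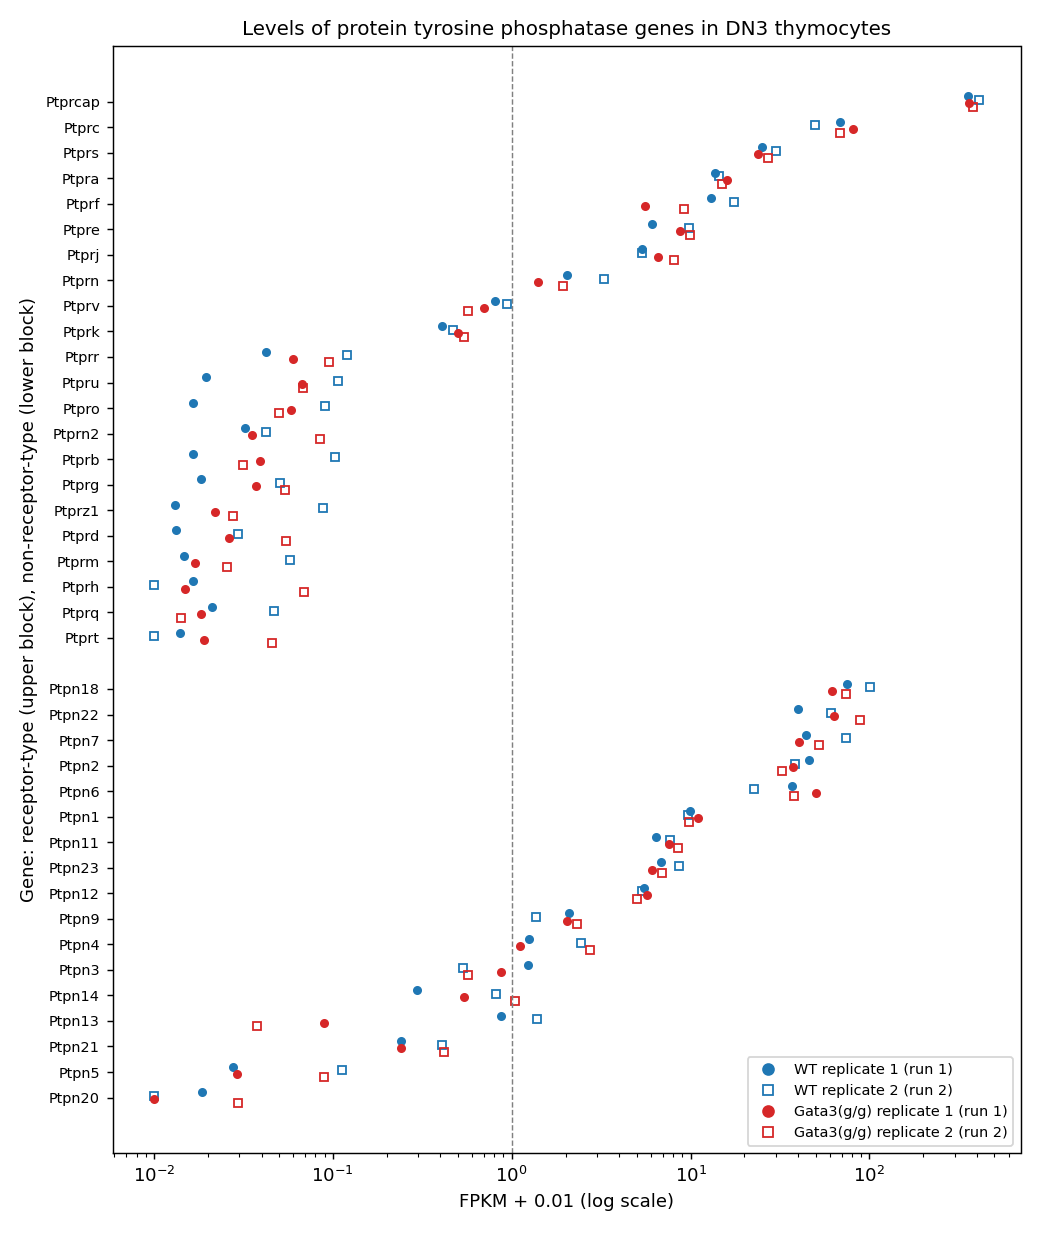
FPKM of all 39 members in each library (log axis, 0.01 added so that values of 0 can be drawn), receptor-type above and non-receptor-type below, each ordered by mean. Circles are run 1, open squares run 2, blue WT and red Gata3(g/g); the dashed line marks 1 FPKM, which 19 members reached on average, and the red points of Ptpn13 lie far to the left of its blue ones.

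Ptprcap was the highest row of the receptor-type class, at 358 and 411 FPKM in WT against 360 and 382 FPKM in Gata3(g/g). Its value is uncertain, because its exons in GENCODE M21 overlap those of other genes. There, 76.0% of its exonic bases overlap exons of Rps6kb2 on the other strand and 26.8% overlap Coro1b on its own strand. In the authors' coordinates the gene starts 1042 bases later, so the overlap within the model they counted is not known. Among phosphatases proper, Ptpn18 (PTP-HSCF, a PEST phosphatase of blood cells), Ptprc and Ptpn22 led, with means of 77.7, 66.7 and 63.3 FPKM. Their ranges overlapped, and so did those of Ptpn7 (52.7), Ptpn2 (38.6) and Ptpn6 (37.0) with the next member in the order. The order had a gap below Ptprs (26.5), whose lowest library exceeded the highest of Ptpra, and another below Ptpn12 (5.39), whose lowest library exceeded the highest of Ptprn. Ptpra (14.7), Ptprf (11.3), Ptpn1 (10.1), Ptpre (8.60), Ptpn11 (7.53), Ptpn23 (7.10) and Ptprj (6.33) lay between those gaps, each overlapping its neighbour. Ptprn (2.15), Ptpn9 (1.94) and Ptpn4 (1.88) were the lowest members above 1 FPKM.

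The 20 members under 1 FPKM fell into 2 layers. Ptpn3, Ptprv (annotated as a transcript without a protein in GENCODE M21), Ptpn14, Ptpn13, Ptprk and Ptpn21 had means from 0.317 to 0.793 FPKM and at least 8 fragments in every library. Ptprk, a homophilic adhesion phosphatase that T helper development in rodents is known to need, stood at 0.395 and 0.462 FPKM in WT against 0.494 and 0.531 FPKM in Gata3(g/g). Each of the other 14 stayed at or below 30 fragments and 0.111 FPKM in all 4 libraries. These were the adhesion, endothelial and neural receptors Ptprb, Ptprd, Ptprg, Ptprh, Ptprm, Ptprn2, Ptpro, Ptprq, Ptprr, Ptprt, Ptpru and Ptprz1, with Ptpn5 and Ptpn20. Summed over these 14, WT replicate 1 held 27 fragments and the other libraries 125, 96 and 112. At these counts no difference between libraries of a single member was resolved (smallest adjusted p = 0.999 for genotype by edgeR with the replicate block and no filter).

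By structural type, expressed members were spread over most groups. All 3 PEST phosphatases (Ptpn12, Ptpn18, Ptpn22), both SH2 phosphatases (Ptpn6, Ptpn11), both PTP1B-type members (Ptpn1, Ptpn2) and both short-ectodomain receptors (Ptpra, Ptpre) were above 1 FPKM. Of 3 LAR-type receptors, Ptprf and Ptprs were expressed and Ptprd was not, at no more than 12 fragments per library. Of 6 fibronectin-repeat receptors only Ptprj (CD148) reached a mean of 1 FPKM over the 4 libraries, of 3 KIM phosphatases only Ptpn7, and of 5 FERM phosphatases only Ptpn4, although Ptpn13, Ptpn3 and Ptpn14 exceeded 1 FPKM in 1 library each. The 4 MAM-type and the 2 carbonic anhydrase-type receptors stayed below 1 FPKM in every library.

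The genotype comparison asked which members differed between Gata3(g/g) and WT. With edgeR's quasi-likelihood test on the genotype alone, 0 of the 19 tested members passed an adjusted p of 0.05, as did 0.0% of all 10224 genes tested, and 1 member, Ptprf, had an unadjusted p under 0.05. DESeq2 and limma without the block also called 0 members. With the replicate number, and so the run, as a block, 3 of 19 passed, against a background of 6.9% of all genes. Ptpn22 and Ptpn6 rose (background for higher 3.9%) and Ptprf fell (background for lower 2.99%). By class these were 1 of 8 receptor-type (1 of 7 without Ptprcap) and 2 of 11 non-receptor-type members, and with 3 calls no difference between the classes can be read. With the block, DESeq2 called the same 3 members, against 4.08% of all genes (2.25% higher and 1.83% lower). Limma on log2(FPKM + 1) with the block called 0 members, against 0.176% of all genes (0.0978% higher and 0.0782% lower), and gave adjusted p = 0.180 for Ptpn22, 0.212 for Ptpn6 and 0.0898 for Ptprf.

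Ptpn22, the PEST phosphatase PEP that binds the kinase CSK and restrains LCK and ZAP-70, measured 39.6 and 61.2 FPKM in WT (50.4 ± 15.3, SD, n = 2) and 63.4 and 89.1 FPKM in Gata3(g/g) (76.3 ± 18.2, SD, n = 2). The Gata3(g/g) library was the higher of each run, and the lowest Gata3(g/g) library lay just above the highest WT library. Under the replicate block edgeR put the log2 fold change at 0.61 (SE 0.126), adjusted p = 0.00609. Without the block it was 0.60 (SE 0.327), and edgeR's adjusted p was 0.9997. Within the runs the difference was 0.69 in run 1 and 0.53 in run 2 on the log2 CPM scale. The gene lies on chromosome 3 from 103860292 to 103912247 (mm10) in the authors' deposited table, which gave it a q-value of 0.0263. A change in the number of cells of a type and a change in RNA per cell cannot be told apart in these bulk libraries. This holds here and for the values that follow.

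Ptpn6, which encodes SHP-1, an inhibitory phosphatase recruited through its SH2 domains, measured 37.1 and 22.7 FPKM in WT (29.9 ± 10.2, SD, n = 2) and 50.2 and 37.8 FPKM in Gata3(g/g) (44.0 ± 8.78, SD, n = 2). Gata3(g/g) was again higher in each run, by 0.46 and 0.73 on the log2 CPM scale, and the genotypes were separated by less than 1 FPKM across runs. EdgeR with the replicate block gave a log2 fold change of 0.59 (SE 0.127) at an adjusted p of 0.00836, and 0.57 (SE 0.301) at an adjusted p of 0.9997 without it. The gene lies on chromosome 6 from 124720718 to 124738709, with a q-value of 0.0362 in the authors' deposited table. Its closest relative Ptpn11, which encodes SHP-2 and mostly promotes signalling, stood at 6.43 and 7.64 FPKM in WT against 7.54 and 8.49 FPKM in Gata3(g/g). That log2 difference, 0.20 (SE 0.133), did not pass (edgeR with the block, adjusted p = 0.435). SHP-1 is also abundant in B and myeloid cells. Of 10 measured B-lineage markers 3 reached 1 FPKM in 3 of the libraries and 4 in Gata3(g/g) replicate 2, and of 13 measured myeloid and dendritic markers 2 did in each run 1 library and 4 in each run 2 library. In these lists Blk, with 5.08 and 1.52 FPKM in WT against 13.9 and 7.36 FPKM in Gata3(g/g), and Lyz2, with 9.93 and 4.20 FPKM in WT against 18.7 and 13.6 FPKM in Gata3(g/g), were higher in both Gata3(g/g) libraries than in either WT library, while Pax5 stayed at or under 0.0274 FPKM and Csf1r at or under 0.153 FPKM. Blk is also in the list of gamma-delta T cell markers. The other markers of the B-lineage and myeloid lists at or above 1 FPKM in every library, Cd79b and Cd68, overlapped between the genotypes. Cd79b had 29.8 and 29.2 FPKM in WT against 37.0 and 29.6 FPKM in Gata3(g/g). Cd68 had 2.96 and 6.02 FPKM in WT against 3.27 and 2.96 FPKM in Gata3(g/g). Of the markers that reached 1 FPKM in only some libraries, Igll1, S100a8 and S100a9 overlapped and Vpreb1 did not. Vpreb1 had 1.295 and 0.979 FPKM in WT against 2.21 and 2.16 FPKM in Gata3(g/g). Itgax, under 1 FPKM in every library, was also higher in Gata3(g/g), with 0.151 and 0.142 FPKM in WT against 0.547 and 0.447 FPKM. The part of B and myeloid cells in the Ptpn6 difference was not tested.

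Ptprf, which encodes the adhesion-type receptor phosphatase LAR, known as a surface protein of immature thymocytes, fell. It measured 13.1 and 17.4 FPKM in WT (15.2 ± 3.10, SD, n = 2) and 5.57 and 9.14 FPKM in Gata3(g/g) (7.36 ± 2.52, SD, n = 2). Both WT libraries were above both Gata3(g/g) libraries, and the counts behind these values ran between 2192 and 3863 fragments. Under the replicate block edgeR put the log2 fold change at −1.08 (SE 0.127) with adjusted p = 3.89e-05, and without it −1.05 (SE 0.323), adjusted p = 0.9997. The difference was −1.21 in run 1 and −0.94 in run 2. The gene lies on chromosome 4 from 118208213 to 118291397, and its q-value in the authors' deposited table was 0.000264. Its LAR-type relative Ptprs, which encodes PTP sigma, stood at 25.2 and 30.1 FPKM in WT against 23.8 and 27.1 FPKM in Gata3(g/g), a log2 difference of −0.12 (SE 0.124) that did not pass (edgeR with the block, adjusted p = 0.619).

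Ptpn13, which encodes the large FERM and PDZ phosphatase PTP-BL, averaged 0.587 FPKM and so lay under the filter of 1 FPKM, although its long transcript gave 276 and 307 fragments in WT. It measured 0.860 and 1.38 FPKM in WT against 0.0797 and 0.0278 FPKM in Gata3(g/g), the latter from 34 and 8 fragments. In FPKM the Gata3(g/g) library was 10.8-fold lower in run 1 and 49.7-fold lower in run 2. Its fit without the filter on low values is singled out here after its values were seen. Without any filter it fell by edgeR both without the block (log2 fold change −4.29, SE 0.509, adjusted p = 9.46e-05) and with the replicate block (−4.25, SE 0.287, adjusted p = 2.14e-46). Of all 21355 genes in those fits, 0.272% were called without the block (0.14% higher and 0.131% lower) and 4.63% with it (2.57% higher and 2.06% lower). With edgeR's filter on counts, added after seeing the data, it passed with the block (adjusted p = 5.83e-09) and not without it (adjusted p = 0.286). That filter with the block called 6.5% of all genes, 3.52% higher and 2.98% lower. The gene lies on chromosome 5 from 103425192 to 103598361, and its q-value in the authors' deposited table was 0.00509. No other member under 1 FPKM passed without the filter, with or without the block. Among the other FERM phosphatases below 1 FPKM, Ptpn14 stood at 0.287 and 0.804 FPKM in WT against 0.531 and 1.03 FPKM in Gata3(g/g), and its log2 difference with the block and no filter was 0.61 (SE 0.212) with an edgeR adjusted p of 0.0720. Ptpn3 stood at 1.23 and 0.524 FPKM in WT against 0.859 and 0.560 FPKM in Gata3(g/g). Ptpn21 had 0.230 and 0.399 FPKM in WT against 0.229 and 0.408 FPKM in Gata3(g/g), and its run difference did not pass either (edgeR without the filter, adjusted p = 0.165).

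**Figure D2:**
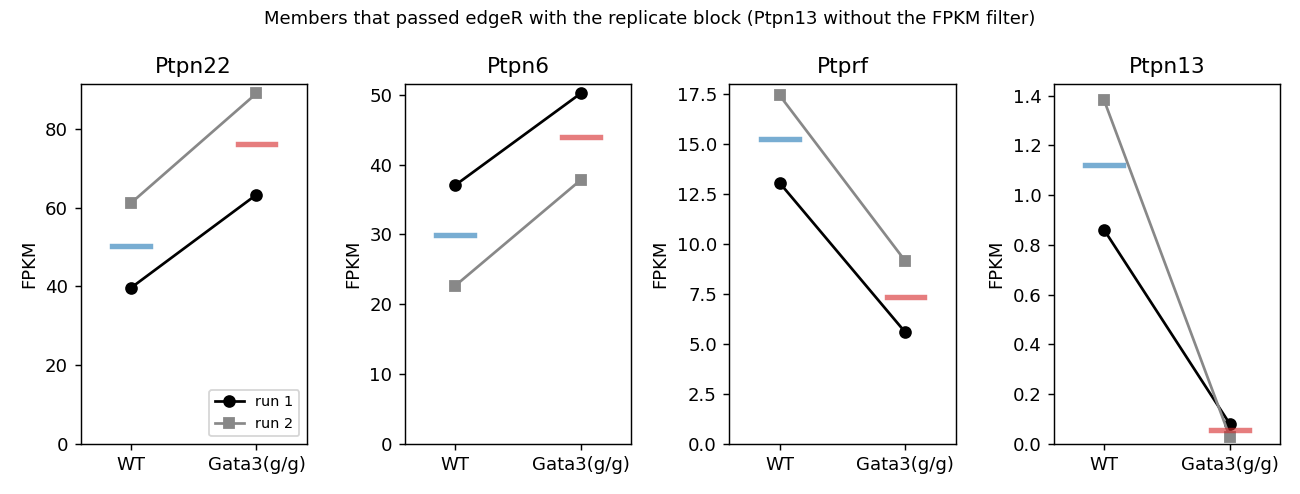
FPKM of Ptpn22, Ptpn6, Ptprf and Ptpn13 in the 4 libraries (linear axes from 0), with a line joining the WT and the Gata3(g/g) library of each run and a bar at each genotype's mean of 2 libraries. The lines of both runs rise for Ptpn22 and Ptpn6 and descend for Ptprf and Ptpn13, and the runs are offset in opposite senses for Ptpn22 (run 2 higher) and Ptpn6 (run 1 higher).

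The authors' deposited table, made with Cuffdiff, had a test result for 24 members and called 4 of them, against 4.1% of 11123 genes with a result. Its 4 calls were Ptpn22 and Ptpn6 higher and Ptprf and Ptpn13 lower in Gata3(g/g). It rests on the same libraries and is no independent support.

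The remaining tested members did not pass in edgeR's model with the block, which gives the log2 differences and adjusted p-values of the next sentences. Ptprc had 68.1 and 49.7 FPKM in WT against 80.9 and 68.3 FPKM in Gata3(g/g), a difference of 0.36 (SE 0.156) with adjusted p = 0.199. Ptprj, the receptor CD148 that can both activate and restrain Src kinases, had 5.37 and 5.37 FPKM in WT against 6.54 and 8.02 FPKM in Gata3(g/g), a difference of 0.38 (SE 0.1396) with adjusted p = 0.120. In both genes every Gata3(g/g) library exceeded every WT library, although for Ptprc the nearest pair differed by less than 1 FPKM. Ptpra, which like CD45 acts on the inhibitory tyrosine of Src kinases, had 13.6 and 14.4 FPKM in WT against 15.9 and 14.9 FPKM in Gata3(g/g) and a difference of 0.14 (SE 0.130). Its libraries did not overlap between the genotypes either.

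Values in Gata3(g/g) were lower on average, without passing, for Ptprn, Ptpn18, Ptpn7, Ptpn2 and Ptpn23. Ptprn, which encodes the secretory granule protein IA-2, had 2.03 and 3.25 FPKM in WT against 1.39 and 1.92 FPKM in Gata3(g/g), a difference of −0.65 (SE 0.207) with adjusted p = 0.0732. Without the filter on low values its edgeR adjusted p was 0.0412 with the block, past the threshold. Ptpn18 had 74.7 and 101 FPKM in WT against 61.6 and 73.7 FPKM in Gata3(g/g), a difference of −0.36 (SE 0.124) with adjusted p = 0.0958. Thus among the 3 PEST phosphatases Ptpn22 rose and Ptpn18 was lower without passing. The third, Ptpn12, a regulator of the cytoskeleton, stood at 5.49 and 5.37 FPKM in WT against 5.68 and 5.0 FPKM in Gata3(g/g), with overlapping libraries and a difference of −0.02 (SE 0.148). Ptpn2, the TC-PTP that acts on JAK1 and JAK3, had 46.0 and 38.3 FPKM in WT against 37.5 and 32.6 FPKM in Gata3(g/g), a difference of −0.22 (SE 0.124) with adjusted p = 0.339. Its paralogue Ptpn1 (PTP1B) stood at 9.95 and 9.69 FPKM in WT against 10.9 and 9.86 FPKM in Gata3(g/g), a difference of 0.09 (SE 0.133). All libraries of Ptpn2 were lower in Gata3(g/g), whereas those of Ptpn1 overlapped. Ptpn7, the haematopoietic KIM phosphatase that inactivates MAP kinases, had 44.3 and 73.8 FPKM in WT against 40.2 and 52.6 FPKM in Gata3(g/g), a difference of −0.31 (SE 0.133) with adjusted p = 0.188. Ptprv, 149 bases from Ptpn7 on chromosome 1, was at 0.795 and 0.933 FPKM in WT against 0.695 and 0.559 FPKM in Gata3(g/g). Ptpn23, the endosomal HD-PTP, had 6.81 and 8.60 FPKM in WT against 6.08 and 6.91 FPKM in Gata3(g/g).

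Among the 19 tested members, the genotype difference was most unequal between the runs for Ptpn9, Ptpre, Ptpn7 and Ptpn4. Ptpn9, a Sec14-domain phosphatase of vesicle membranes, had 2.07 and 1.35 FPKM in WT against 2.02 and 2.31 FPKM in Gata3(g/g), a log2 CPM difference of −0.02 in run 1 and 0.76 in run 2. Ptpre, a receptor with a short ectodomain, showed 0.54 in run 1 and 0.01 in run 2, with WT replicate 1 low at 6.08 FPKM and the other libraries between 8.72 and 9.87 FPKM. Ptpn4 differed by −0.14 in run 1 and 0.15 in run 2, and Ptpn7 by −0.12 and −0.50. With 1 library per genotype in each run, these gaps between the runs were not tested.

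**Figure D3:**
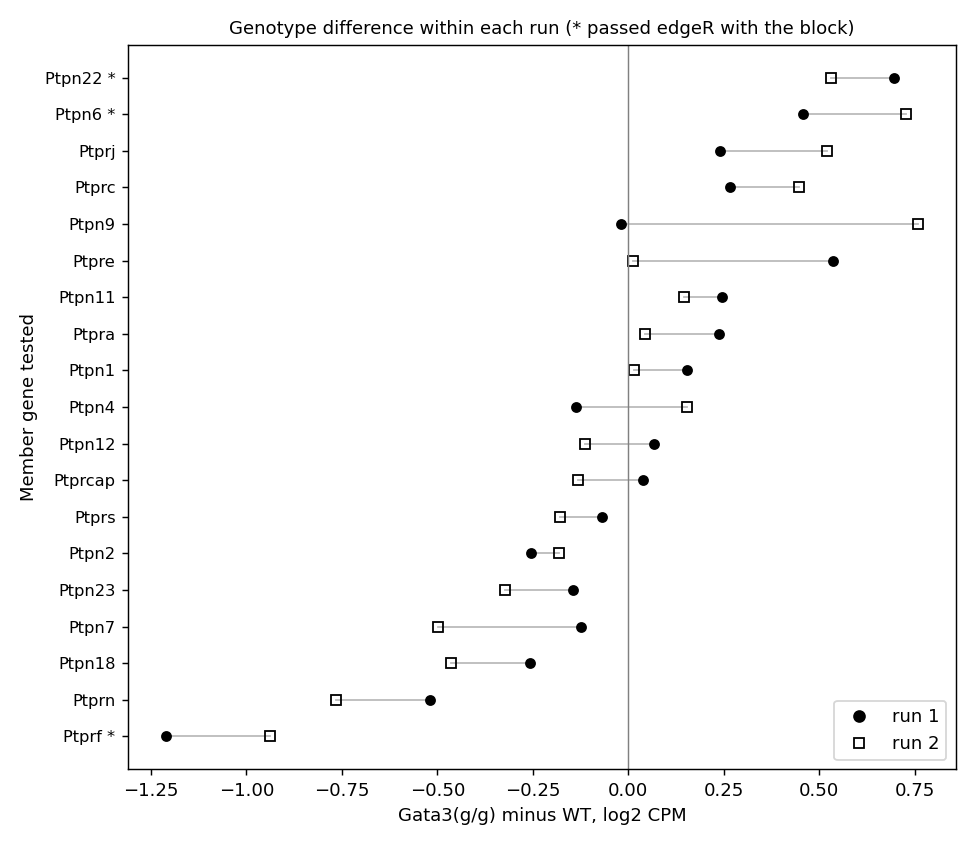
Difference between the Gata3(g/g) and the WT library of the same run (log2 CPM, prior count 2) for the 19 tested members, ordered by the log2 fold change with the replicate block; circles are run 1 and open squares run 2. Ptprf lies lowest and Ptpn22 and Ptpn6 highest with both runs on the same side of 0, and the line of Ptpn9 is the longest.

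Over the 19 tested members, 15 (78.95%) had the same sign in both runs, against 64.4% of all tested genes. The libraries of the genotypes did not overlap in FPKM for 9 members, 5 with Gata3(g/g) above and 4 with it below, against a background of 29.0% of all genes (14.2% above and 14.8% below). The median log2 fold change with the block was 0.01, equal to that of all genes, 0.05 for the 8 receptor-type and 0.01 for the 11 non-receptor-type members. Without Ptprcap the receptor-type median was 0.14.

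The run comparison asked how far the members varied between the sequencing runs. With genotype in the model, 8 of the 19 members differed between run 2 and run 1 by edgeR, 7 higher and 1 lower in run 2, against a background of 34.8% of all genes (17.5% higher and 17.3% lower). Ptpn4, a FERM and PDZ phosphatase known to act on the T cell receptor zeta chain, was raised most in run 2, from 1.24 to 2.45 FPKM in WT and from 1.11 to 2.74 FPKM in Gata3(g/g) (log2 difference 1.17 (SE 0.194), adjusted p = 0.000264 by edgeR). Ptprn at 0.60 (SE 0.206), Ptprf at 0.59 (SE 0.126), Ptpn7 at 0.58 (SE 0.133), Ptpn22 at 0.58 (SE 0.126), Ptpre at 0.45 (SE 0.146) and Ptpn18 at 0.36 (SE 0.124) were also higher in run 2. Ptpn6 was lower in run 2, at −0.54 (SE 0.127) with an edgeR adjusted p of 0.00380. All 3 members with a genotype call at the filter of 1 FPKM thus also differed between the runs, by an amount similar to the genotype difference for Ptpn22 and Ptpn6. Of the 19 members, 15 moved the same way between the runs in both genotypes, against 79.2% of all genes. By limma 1 of the 19 passed for run, against 14.2% of all genes (7.24% higher and 6.95% lower in run 2). By DESeq2 5 of the 19 did, against 22.1% of all genes (11.4% higher and 10.7% lower). Without the filter on low values, 19.8% of all genes differed between the runs (6.6% higher and 13.2% lower in run 2). Of the 39 members, 5 were higher and 3 lower in run 2 in that fit. Among the members under 1 FPKM Ptpn14 was higher (log2 difference 1.07, adjusted p = 9.02e-06 by edgeR) and Ptpn3 lower (−1.05, adjusted p = 7.74e-05 by edgeR) in run 2. Ptprn, Ptpre and Ptpn18 did not pass without the filter. Ptprc then passed as lower in run 2 (−0.47, adjusted p = 0.00781 by edgeR). The lean of the members towards higher values in run 2 thus depended on the filter.

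**Figure D4:**
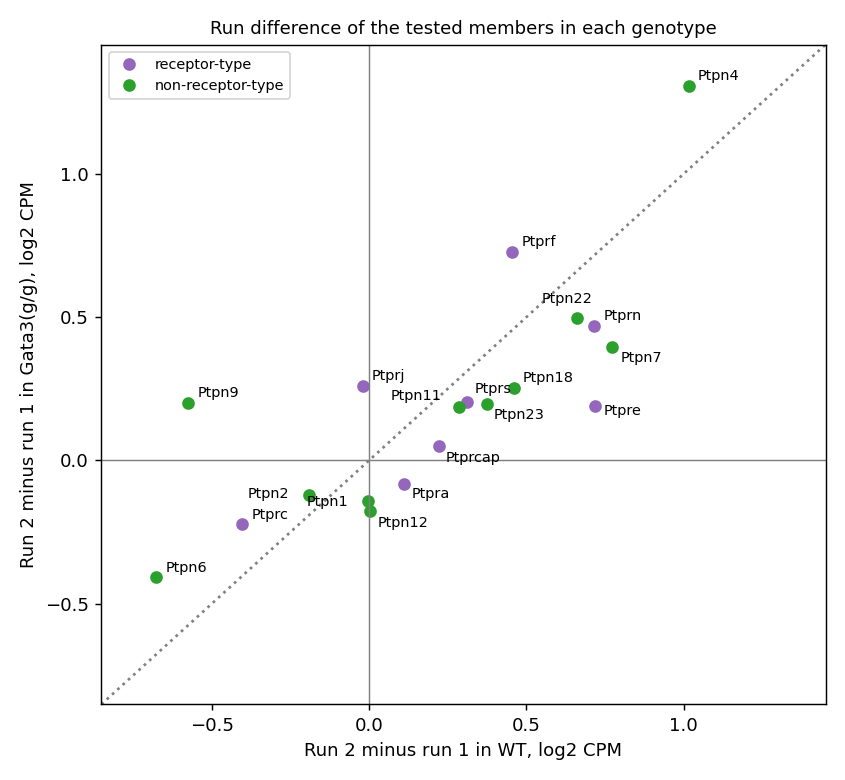
Difference between run 2 and run 1 in WT (horizontal) and in Gata3(g/g) (vertical), log2 CPM, for the 19 tested members; the dotted line marks equal differences. Ptpn4 lies highest in both genotypes, Ptpn6 lowest in both, and Ptpn9, Ptpra, Ptprj and Ptpn12 are on opposite sides of 0 between the genotypes.

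The run difference went along with erythroid transcripts and, among the myeloid markers, chiefly with S100a8 and S100a9. Of 8 erythroid markers, 6 reached 1 FPKM in each run 2 library, against 0 in WT replicate 1 and 1 in Gata3(g/g) replicate 1. The 13 measured myeloid and dendritic markers summed to 14.6 (WT) and 22.9 FPKM (Gata3(g/g)) in run 1 and to 56.4 and 66.8 FPKM in run 2, of which S100a8 alone gave 33.3 and 40.2 FPKM in run 2. S100a9 rose from run 1 to run 2, from 0.466 to 12.1 FPKM in WT and from 0 to 8.77 FPKM in Gata3(g/g). Lyz2 went the other way, from 9.93 to 4.20 FPKM in WT and from 18.7 to 13.6 FPKM in Gata3(g/g). The part of other cells in the run differences of the members was not tested. Between the genotypes, the 6 measured gamma-delta T cell markers summed to 45.0 and 34.1 FPKM in WT and to 144 and 90.5 FPKM in Gata3(g/g), with none of them at 0, and with the block 4 of the 6 rose and Sox13 fell. The 10 measured B-lineage markers summed to 36.8 and 33.2 FPKM in WT and to 53.5 and 41.2 FPKM in Gata3(g/g), of which Cd79b gave at least 29.2 FPKM in every library, while Pax5 was at 0 in 3 of the 4. Blk is counted both in this sum and in that of the gamma-delta T cell markers. The 8 natural killer markers summed to 43.8 and 41.6 FPKM in WT and to 96.8 and 76.2 FPKM in Gata3(g/g). Nearly all of it was Nkg7, while Ncr1 was at most 0.0584 FPKM. The 7 mast cell and granulocyte markers summed to 48.7 and 55.8 FPKM in WT and to 8.30 and 8.61 FPKM in Gata3(g/g), the WT sum mostly Cpa3, with Fcer1a at 0 in all 4 libraries. The 9 markers of double-positive and mature T cells summed to 251 and 327 FPKM in WT and to 327 and 368 FPKM in Gata3(g/g), with Cd4 at most 0.492 FPKM. The part of these cell types in the genotype differences of Ptpn22, Ptpn6, Ptprf and Ptpn13 was not tested. The 8 endothelial markers summed to 24.8 and 20.1 FPKM in WT and to 28.6 and 25.5 FPKM in Gata3(g/g), mostly Pecam1, with Kdr at most 0.0346 FPKM. The 10 thymic epithelial and stromal markers summed to 19.7 and 15.6 FPKM in WT and to 14.9 and 16.3 FPKM in Gata3(g/g), led by Epcam, with Foxn1 at most 0.0568 FPKM.

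Genes that the phosphatases act on or with, and related genes, were taken from 5 lists. None of the genes in these lists passed without the block. With the block the share of all tested genes called was 3.9% higher and 2.99% lower, against which the counts of each list are to be read. Of 24 tested partners of T cell receptor signalling, 2 rose and 1 fell with the block, and the median log2 fold change was 0.03 against 0.01 for all genes. Themis, an adaptor that binds SHP-1 and SHP-2, rose, with 38.8 and 29.8 FPKM in WT against 59.9 and 57.9 FPKM in Gata3(g/g) and a log2 fold change of 0.80 (SE 0.131) (edgeR with the block, adjusted p = 0.000964). Cd6, a lymphocyte surface receptor, also rose, by 0.52 (SE 0.1403). Ubash3a, which encodes the phosphatase-related protein STS-2, fell, with 15.5 and 18.2 FPKM in WT against 11.3 and 11.9 FPKM in Gata3(g/g) and a log2 fold change of −0.54 (SE 0.135). The most abundant of the list, the receptor subunit genes Cd3g and Cd3e, had log2 fold changes of −0.08 and −0.20 that did not pass. Lck and Csk, named here because CD45 and PEP act with them and after their values were seen, did not pass either. Lck stood at 245 and 175 FPKM in WT against 294 and 215 FPKM in Gata3(g/g), a difference of 0.28 (SE 0.160), and Csk at 83.2 and 56.7 FPKM in WT against 73.8 and 48.6 FPKM in Gata3(g/g), a difference of −0.19 (SE 0.123).

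Of 14 tested cytokine receptor and JAK-STAT genes, substrates of TC-PTP, PTP1B and SHP-1 among them, 3 rose and 1 fell with the block, against 3.9% and 2.99% of all genes (median 0.07). The receptor genes Il2ra, at 0.98 (SE 0.181), and Il7r, at 0.70 (SE 0.123), and the kinase gene Jak2, at 0.57 (SE 0.147), rose. Stat5a fell, with 37.8 and 29.2 FPKM in WT against 25.7 and 19.4 FPKM in Gata3(g/g) and a log2 fold change of −0.57 (SE 0.121) (edgeR with the block, adjusted p = 0.00744). Ifngr1, the second most abundant after Il2ra, had −0.17 and did not pass. Of 10 tested receptors and adaptors that recruit SHP-1 or SHP-2, 1 rose and 9 did not pass (median 0.36). The gene that rose was Gab2, a docking protein for SHP-2, with 1.51 and 1.39 FPKM in WT against 2.78 and 2.25 FPKM in Gata3(g/g) and a log2 fold change of 0.80 (SE 0.168). The most abundant of them, Bst2 (−0.28) and Pecam1 (0.36), did not pass.

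Among 15 tested phosphatase genes outside the symbol rule, 3 rose and 0 fell with the block (median 0.08). The cofilin phosphatase genes Ssh1, at 0.88 (SE 0.237), and Ssh3, at 0.49 (SE 0.142), were among those that rose, the latter close to the threshold with an edgeR adjusted p of 0.0487. Ptp4a2 and Ptp4a3, the most abundant with means of 93.4 and 28.2 FPKM, did not pass. Of 6 tested MAP kinase pathway genes, none passed with or without the block (median −0.0020). The list includes MAP kinases, on which KIM phosphatases such as Ptpn7 act. Map2k2, a kinase gene of this pathway and among its most abundant, had a log2 fold change of −0.05.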

How the data were processed

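RNA from 4 libraries, 2 per genotype, purified on columns with DNase treatment and made into libraries with a NuGEN Encore Complete kit (per the labels' protocols), was analysed from the authors' deposited tables. Per the submitters' processing notes, TopHat2 2.0.8b, Bowtie2 2.1.0 and Cuffdiff 2.1.1 were used with mm10; the sources used here do not give annotation or strand setting, so values of overlapping and antisense genes are uncertain. The authors deposited, per the file headers, estimated counts of fragments before scaling, FPKM, and scaled fragments (a normalized signal, not used). Their deposited comparison table gives mean FPKM, a log2 fold change, a test score (not used), p-values and q-values.

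Counts (97.7% to 98.9% within 0.01 of a whole number) were rounded, and 3 genes marked too deep were left out. Genes with a mean of at least 1 FPKM (10224) were tested with edgeR 4.0.16 (R 4.3.3; quasi-likelihood, TMM factors 0.983 to 1.02, two-sided, Benjamini-Hochberg over all tested genes, threshold 0.05). The model without block is the main one. Run identifiers in the labels say that the replicate number marks a shared run. Across genes, run differences of the genotypes correlated at 0.754 (Pearson) and 0.758 (Spearman), so the model with the replicate block is printed beside it. SE is the unshrunken log2 fold change over the root of F. Alternatives were DESeq2 1.42.0, limma 3.58.1 (pseudocount 1 or 0.1), other scalings and filters, and leaving out each library. Models were tested on simulated data.

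Members and lists were chosen with earlier results of these data known. By rule, values in every library were given for members called for genotype, the 6 highest per class, 6 called for run, and the 4 tested members with the largest gap between runs. Other members were added after their values were seen, to account for all 39. Named genes were, of each list, those called and the 2 most abundant, some of which are not reported here.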

Additional observations from a re-analysis of the deposited data

How the results depend on the processing

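With edgeR and no replicate block, 0 members and 0 genes were called, also with RLE factors, total fragments only or a mean of at least 5 FPKM. The replicate block raised the members called to 3 of 19 (1 receptor-type, 2 non-receptor-type) and all genes to 705 of 10224. Of the same genes, 417 were called by DESeq2 and 674 with total fragments only, each with the same counts of members. At 5 FPKM fewer genes were tested, and 348 of 7013 genes were called. There the same counts of members were called out of 16 tested (7 receptor-type and 9 non-receptor-type). With the block and no filter, 5 of 39 members (2 and 3) and 988 of 21355 genes were called. With the block and the count filter these were 4 of 29 members (1 and 3) and 873 of 13439 genes. With the block and total fragments only, 464 of the 674 genes were higher, against 399 of 705. Limma with the block called 18 genes and 0 members. Without the block, DESeq2 called 88 genes, limma 5 with either pseudocount, and no filter 58 genes and 1 member (Ptpn13). Leaving out each library, without the block, gave 0 members and between 1 (without Gata3(g/g) replicate 2) and 11 genes (without WT replicate 2). For the run difference, 8 members and 3560 genes were called, against 5 and 2263 by DESeq2, 1 and 1451 by limma, and 1 and 751 with run alone. In CPM, which is not divided by length, the class medians were 0.718 and 31.3 CPM; without one library they were 0.0489 to 0.0765 and 5.29 to 5.52 FPKM.

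Leaving out 1 library makes the runs unequal between the genotypes. The log2 fold change then ranged from 0.29 to 0.96 for Ptpn22, from 0.27 to 0.93 for Ptpn6 and from −1.46 to −0.73 for Ptprf. It turned direction for Ptprcap (range −0.1696 to 0.062), Ptpn7 (−0.6949 to 0.0864) and Ptprs (−0.2892 to 0.0329), each without WT replicate 2, for Ptpre (−0.0933 to 0.6344) without WT replicate 1, for Ptpn12 (−0.1118 to 0.0653) without Gata3(g/g) replicate 2, and for Ptpn4 (−0.7353 to 0.658) without WT replicate 1 (−0.3743) or Gata3(g/g) replicate 2. With total fragments only, Ptpn12 was at 0.028 without and 0.0272 with the block, and Ptprcap at 0.0014 with it. The cause of these changes was not tested. With 2 libraries per genotype and 1 residual degree of freedom under the block, small p-values lean on the spread pooled over genes, and the block could not be fitted on 3 libraries.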
